A study of Mus musculus with 16 samples.

Results

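The average effect of traumatic occlusion on the periodontal ligament was taken over 2 backgrounds, the untouched tooth and the tooth with a ligature. All 16 libraries of the series took part. The 8 libraries from overloaded teeth were set against the 8 from teeth without overload, with the ligature as a covariate. The animals of every group were wild-type male C57BL/6J mice, 9 weeks old. The 4 control libraries came from mice without treatment. In the 4 trauma libraries composite resin had been built up on the biting surface of the second molar of the left upper jaw, so that the tooth took excess load. The 4 ligature libraries came from teeth with a 6-0 silk thread around that molar, a common way to induce periodontitis. Resin and thread were combined in the 4 ligature plus trauma libraries. The labels do not say how long the resin or thread was in place, nor whether each library came from 1 mouse, so the p-values speak of the spread among libraries, part of which may be technical. Genes that lay on the same side of zero in both backgrounds, trauma against control and ligature plus trauma against ligature, are the subject here.

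The periodontal ligament is the sheet of collagen fibres that slings the tooth root in its bony socket. Its fibroblasts and osteoblasts sense load, and they answer strain with a short burst of immediate-early transcription factors, with prostaglandins and cytokines, and with a shift between the osteoclast-inducing ligand RANKL (Tnfsf11) and its decoy receptor osteoprotegerin (Tnfrsf11b). Osteoclasts then resorb bone on the compressed side, while collagen is broken down and laid down again. Plaque held by a ligature drives neutrophils and inflammatory cytokines into the same tissue.

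All 18 periodontal ligament fibroblast markers were measured, with a summed level between 21410 and 69260 CPM (the read count relative to the scaled library total) over the control libraries and between 26600 and 64720 over the other 12. Postn (periostin), the defining matrix protein of the ligament, was at 6008, 18940, 31410 and 27840 CPM in the control libraries. Other cells were present too. The summed level of 18 measured skeletal muscle genes ran from 7.65 to 366 CPM in control, 8.24 to 17.2 in trauma, 11.1 to 1549 in ligature and 19.2 to 207 in ligature plus trauma. The 17 mature neutrophil genes summed to between 561 and 1201 CPM in control, 1020 and 5242 in trauma, 2531 and 3143 in ligature, and 1937 and 5043 in ligature plus trauma. Total counts ran from 58458102 to 77468584. Libraries also differed in how their levels followed transcript length. The rank correlation across genes between a library's centred log2 CPM and the longest annotated transcript was 0.172 to 0.468 in control and -0.199 to 0.198 in trauma. It was 0.125 to 0.328 in 3 ligature libraries and -0.565 in ligature 2, and -0.495, -0.49, 0.00772 and 0.308 in ligature plus trauma. In bulk tissue, fewer cells of a type and less RNA per cell cannot be told apart.

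No gene passed the test for an average effect of trauma. edgeR's quasi-likelihood test called 0 of 20953 genes (0% of those tested) at an adjusted p under 0.05, with a lowest adjusted p of 0.831. At an unadjusted p under 0.05 there were 968 genes (4.62%), 409 higher (1.95%) and 559 lower (2.67%) with trauma. DESeq2 called 17 genes, 12 higher and 5 lower, and limma-voom called 0. For the 5260 genes with a mean log2 CPM of at least 5, the median 95% interval reached 0.398 on the log2 scale to either side of the estimate. The interaction of trauma with the ligature also called 0 genes (0%), with 1032 at an unadjusted p under 0.05 (4.93%).

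Few genes had a small p with the same direction in both backgrounds. The 2 contrasts have no library in common, though they share 1 fit. Trauma against control had 1450 genes at an unadjusted p under 0.05 (6.92%), 839 higher and 611 lower (2.92%), and ligature plus trauma against ligature 734 (3.50%), 393 higher (1.88%) and 341 lower (1.63%). Over the 20953 genes, 56.3% had the same sign in both, and the log2 fold changes had a Pearson correlation of 0.0186 and a Spearman correlation of 0.107 across genes, which are not independent replicates. Over the 13682 genes with a mean log2 CPM of at least 1 the share was 59.3%, with correlations of 0.16 and 0.209. With the length trend of each library as a covariate the share over all genes was 47.4% and the Spearman correlation -0.0158. On leaving out 1 library they were 47.8% and -0.0313 without ligature plus trauma 3, 49.7% and -0.00167 without ligature 3, and 62.9% and 0.235 without ligature 2. An unadjusted p under 0.05 in both contrasts was reached by 34 genes in the same direction (0.162%), 19 of them higher (0.0907%) and 15 lower (0.0716%), and by 35 genes in opposite directions (0.167%). With the larger of the 2 p-values adjusted over all genes, none of the 34 passed (0 genes, 0%). Without ligature 2 the same-direction genes numbered 444 and the opposite ones 44, and with the length trend on all 16 libraries 44 and 50. Of the 34 genes themselves, 28 stayed in the same-direction set without ligature 2 and 16 with the length trend on all 16 libraries. With the length trend and without ligature 2 together 9 stayed. Without ligature 2 and ligature plus trauma 2 and 3, 15 did. On leaving out 1 library between 17 and 28 stayed.

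**Figure D1:**
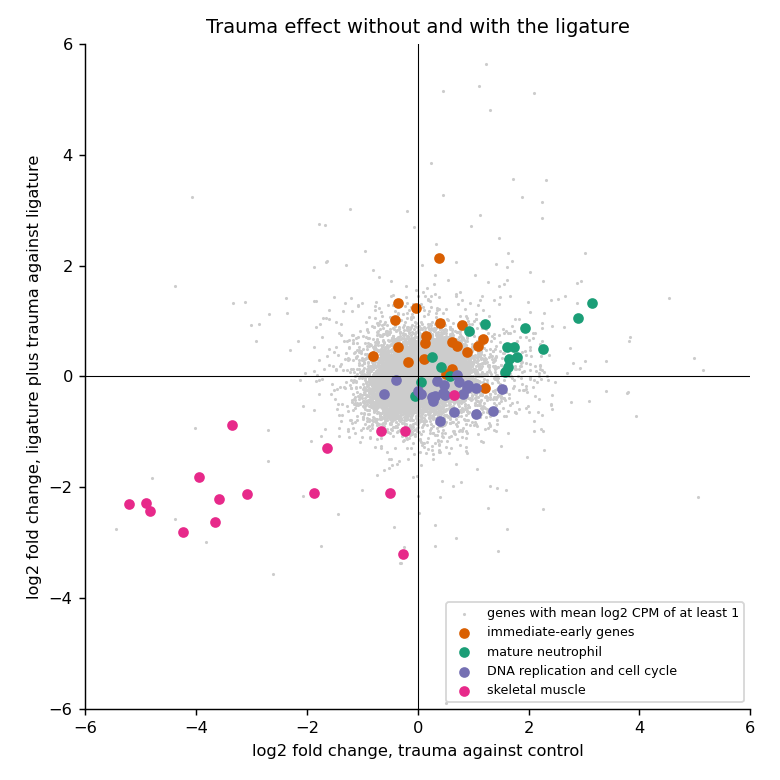
Log2 fold change of trauma against control (x axis) and of ligature plus trauma against ligature (y axis), 1 grey point for each of 13682 genes at or above a mean log2 CPM of 1 and coloured points for 4 gene lists; 21 genes and 2 list members lie outside the axes. Neutrophil genes spread to the right with smaller values on the y axis, immediate-early genes lie mostly above zero, cell cycle genes lie mostly right of zero and below it, and skeletal muscle genes lie low in both.

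Of the 34 genes, 18 reached a mean log2 CPM of 1, 9 higher and 9 lower, and 13 were below a mean log2 CPM of 0. In 9 of the 34 every library of at least 1 group had 0 counts, so their fold changes have no firm size. In all, 13 of the 34 carry only a clone or prediction name. One member alone, Col1a1, stood in any of the gene lists described here.

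The lower gene with the smallest p was Slc26a7, an anion transporter of the SLC26 family. Its level was 5.82, 6.33, 9.24 and 5.46 CPM in control, 5.37, 1.9, 2.29 and 2.67 in trauma, 5.17, 4.02, 7.31 and 6.18 in ligature and 2.43, 2.8, 3.37 and 2.52 in ligature plus trauma. Every overloaded library lay below every library without overload in the same background, although the highest trauma library nearly touched the lowest control. The average log2 fold change was -1.08 (SE 0.23, edgeR unadjusted p 0.000239, adjusted p 0.831), with -1.13 without and -1.03 with the ligature. DESeq2 called it at an adjusted p of 0.0221. It was the only gene of the set to keep an unadjusted p under 0.05 in both backgrounds, with the same direction, under all 26 alternative settings that give both contrasts.

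Col1a1 encodes a chain of type I collagen, the main fibre of ligament and bone, and had a mean log2 CPM of 12.82. Its level was 11630, 11920, 10290 and 13540 CPM in control, 8372, 6217, 6328 and 6688 in trauma, 5452, 3635, 7984 and 7460 in ligature and 4255, 3617, 3153 and 5068 in ligature plus trauma. The 4 trauma libraries lay below the 4 control libraries, while with the ligature the groups overlapped through ligature 2. On average it was lower by a log2 fold change of -0.69 (SE 0.17, edgeR unadjusted p 0.000968, adjusted p 0.831), -0.78 without and -0.61 with the ligature. The value was -0.79 without ligature 2 and -0.45 with the length trend of each library as a covariate. DESeq2 called it at an adjusted p of 0.0339.

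Fibrillar collagen and cross-linking genes lay slightly below zero on average. Of 20 measured, Col1a1 included, 3 were above zero on average, 9 in trauma against control and 4 with the ligature. Col1a1 and Serpinh1 had an unadjusted p under 0.05, both lower, where 2.67% of all genes lay lower at that p. The median was -0.15 against 0.002 over all genes tested. Serpinh1, the collagen chaperone HSP47, was at -0.44 (SE 0.19), -0.72 without and -0.16 with the ligature. Thbs2, a matricellular glycoprotein outside this list that regulates collagen fibre assembly, was at -0.67 (SE 0.22), -0.82 without and -0.53 with the ligature. With the length trend as covariate the median of the collagen list was -0.0017.

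Among the other lower genes of the set, Kdm5c, a demethylase of lysine 4 on histone H3, was at -0.92 (SE 0.23, edgeR unadjusted p 0.001). Its level was 26.8, 24.7, 14.6 and 17.3 CPM in control, 12.9, 10, 14.6 and 8.34 in trauma, 21.9, 6.36, 16.8 and 17.5 in ligature and 7.3, 7.01, 6.25 and 11.3 in ligature plus trauma. The trauma libraries did not reach above the lowest control, and with the thread in place ligature 2 lay within the overloaded range. Tnfsf10, the death ligand TRAIL, was at -0.86 (SE 0.22), with -0.99 without and -0.74 with the ligature. Scaf1, an RNA-processing factor, was at -1.10 (SE 0.28). The remaining lower genes of at least log2 CPM 1, named after their values were seen, were Gsk3a (a serine-threonine kinase, -0.99), Kmt2d (a histone methyltransferase, -0.63), Gcn1l1 (an activator of the amino acid-sensing kinase Gcn2, -0.68) and 9130023H24Rik (-0.69). Of these 7 lower genes all but Gsk3a had a longest transcript above the median of the genes tested. Kdm5c's longest was 6449 bases, Kmt2d's 19820 and Gcn1l1's 8555, against a median of 2800 over the genes tested and 4290 over the 15 lower genes.

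Among the higher genes of the set, Retnlg, a resistin-like peptide made by neutrophils, was at 4.13, 10.8, 4.44 and 7.92 CPM in control, 19, 52.2, 28.1 and 59.2 in trauma, 32.1, 78.3, 30.3 and 35.2 in ligature and 26.4, 278, 129 and 28.6 in ligature plus trauma. The trauma libraries all lay above control, and with the ligature only replicates 2 and 3 of the overloaded group stood above the ligature range. Its average log2 fold change was 1.96 (SE 0.48, edgeR unadjusted p 0.000717, adjusted p 0.831), 2.54 without and 1.39 with the ligature. The average was 2.2 without ligature 2, and 0.85 with the length trend of each library as a covariate as well. DESeq2 called Retnlg and Defb6, each at an adjusted p of 0.0249, and Pcdhga12 at 0.0339.

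Defb6, a beta-defensin of epithelium, was at 3.02, 5.64, 3.18 and 1.17 CPM in control and 3.71, 35, 26.3 and 39.9 in trauma. With the ligature it stayed at 0.158, 0.234, 0.055 and 0 CPM, against 0.11, 0.168, 1.4 and 0.384 with trauma added. Both pairs overlapped, and in the ligature background the levels were close to the lower limit of detection. The average was 2.69 (SE 0.64). Oral epithelial genes were uneven too, with a summed level of 2301 to 19880 CPM in control, 7274 to 48580 in trauma, 2730 to 4664 in ligature and 1453 to 4840 in ligature plus trauma, and their part in the result was not tested.

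Apold1, an endothelial early-response gene, was at 4.53, 4.28, 2.71 and 6.71 CPM in control, 4.08, 15.9, 7.61 and 13.2 in trauma, 13.1, 12.6, 11.5 and 10 in ligature and 21.8, 28.8, 16.5 and 19.3 in ligature plus trauma. All 4 ligature plus trauma libraries lay above all 4 ligature libraries, while trauma 1 lay within the control range. Its average was 1.02 (SE 0.25, edgeR unadjusted p 0.000831), 1.16 without and 0.87 with the ligature, and it lay between 0.87 and 1.13 under all 27 settings. Pcdhga12, a gamma protocadherin of the clustered cell adhesion genes, was at 1.55 (SE 0.36), 1.47 without and 1.63 with the ligature. It shares its last exons with the rest of its cluster, so reads can be split among neighbours. The remaining higher genes of that level, named after their values were seen, were Cxcr4 (the receptor of Cxcl12, 0.89), Ybx3 (a cold-shock domain nucleic acid-binding protein, 0.97), Cbl (a ubiquitin ligase of receptor tyrosine kinases, 0.60), Gm5483 (2.32) and Gm17660 (1.19). DESeq2 called Gm5483 at an adjusted p of 0.00551.

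**Figure D2:**
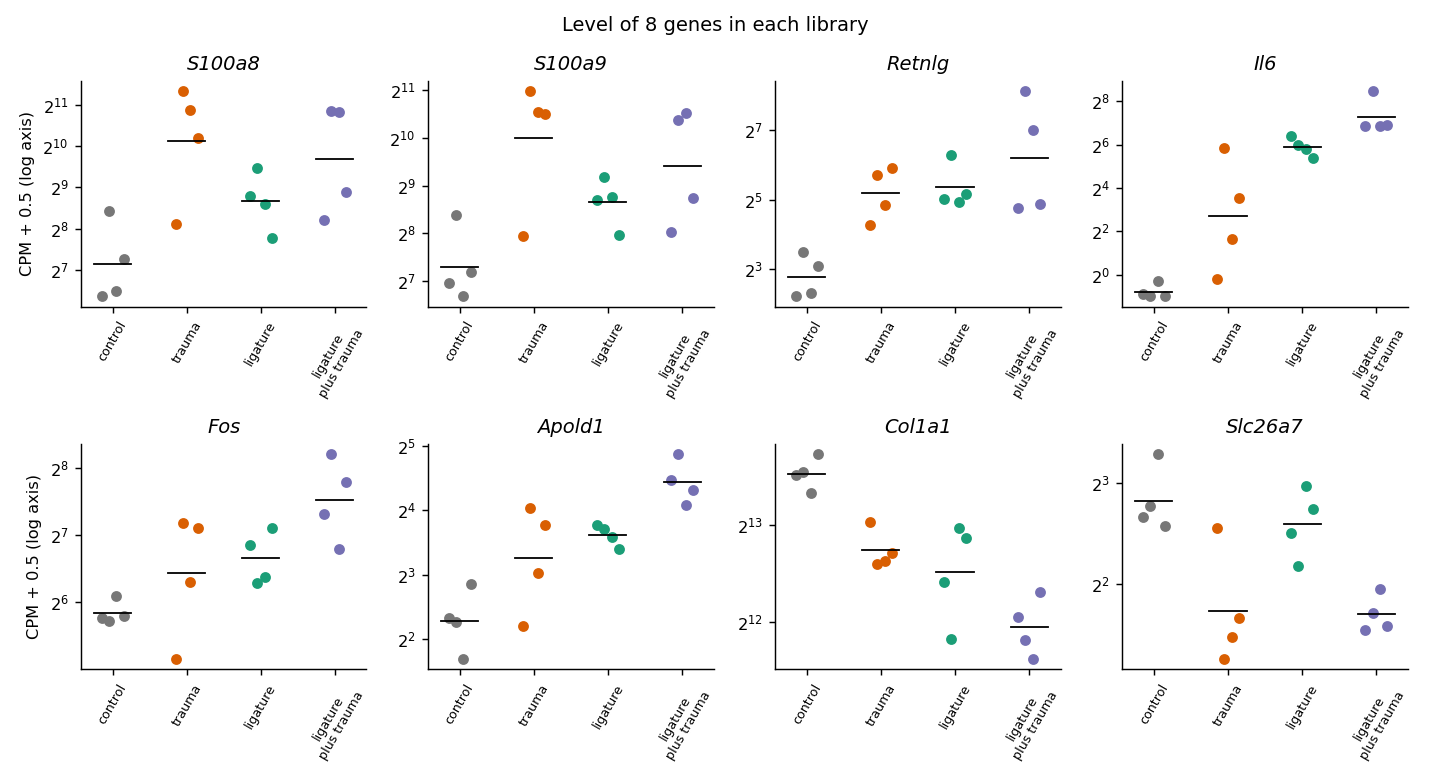
CPM plus 0.5 on a log axis for 8 genes, 1 point for each of the 4 libraries of a group, with a bar at the mean of the log values. Slc26a7 and Col1a1 lie lower with trauma in both backgrounds, Il6 and Apold1 higher, and the neutrophil genes S100a8, S100a9 and Retnlg are high in replicates 2 and 3 of ligature plus trauma.

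Separation of the libraries gave a second view that uses no variance model. In 1453 genes (6.93%) trauma and control did not overlap, and in 302 (1.44%) ligature plus trauma and ligature did not. Both held in the same direction for 6 genes (0.0286%), 3 higher (0.0143%) and 3 lower (0.0143%), and in opposite directions for 4 (0.0191%). The 3 higher genes were Il6, Xcr1 and Gm37297, and the 3 lower ones Slc26a7, Nol4 and Tmem151b, all but Il6 and Slc26a7 named after their values were seen. Xcr1, the chemokine receptor of cross-presenting dendritic cells, was low throughout, at 0.435, 0.531, 0.257 and 0.253 CPM in control, 1.26, 3, 3.68 and 2.21 in trauma, 0.426, 0.273, 0.412 and 0.497 in ligature and 0.8, 1.23, 0.671 and 0.614 in ligature plus trauma. Nol4 and Tmem151b did not exceed 2.28 CPM in any library. The 4 opposite genes were Mcm5, A2m, Asb5 and Dnajb2.

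Il6, the cytokine that links load and infection to osteoclast induction, was the most highly expressed of the 3 higher genes. Its level was 0.0483, 0, 0.309 and 0 CPM in control, 0.376, 56.5, 2.67 and 11.3 in trauma, 85.2, 62.3, 55.9 and 41.9 in ligature and 115, 354, 117 and 119.5 in ligature plus trauma. Each overloaded group lay wholly above its own reference, from near 0 in control and from 41.9 CPM or more in ligature. Trauma 1, with 28 reads, nearly touched control 3, with 24 reads. The fitted log2 fold change was 4.09 on average (SE 1.28, edgeR unadjusted p 0.00526, adjusted p 0.831), 7.58 without and 1.52 with the ligature. The first of these has no firm size because control held almost no reads, and the average was 1.64 with limma-voom and 5.28 without ligature 2 and ligature plus trauma 2 and 3. The difference between backgrounds had an unadjusted interaction p of 0.00174 and an adjusted p of 0.732. The larger contrast p was 0.149, so Il6 is not among the 34.

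The promoters of Il6, of the immediate-early gene Fos and of the neutrophil gene S100a9 are shown because these genes stand for the cytokine, immediate-early and neutrophil genes described next. Each is the 250 bases before the RefSeq start on build GRCm38.p6, read in the direction of the gene. Capitals mark matches on either strand to the AP-1 motif TGANTCA, the C/EBP motif TTGCNNAA, the NF-kappa-B consensus and the cAMP-response core TGACGT. No 2 matches overlapped.
Il6, chr5:30012864-30013113, plus strand: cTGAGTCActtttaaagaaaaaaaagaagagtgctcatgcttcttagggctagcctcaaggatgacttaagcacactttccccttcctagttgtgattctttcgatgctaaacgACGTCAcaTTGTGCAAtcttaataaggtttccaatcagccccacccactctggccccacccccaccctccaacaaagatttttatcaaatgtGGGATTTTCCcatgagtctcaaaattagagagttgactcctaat
Fos, chr12:85473640-85473889, plus strand: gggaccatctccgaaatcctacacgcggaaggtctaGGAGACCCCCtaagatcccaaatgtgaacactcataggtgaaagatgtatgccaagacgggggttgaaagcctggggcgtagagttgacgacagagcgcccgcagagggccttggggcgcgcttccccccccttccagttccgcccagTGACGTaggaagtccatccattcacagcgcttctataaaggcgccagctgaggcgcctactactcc
S100a9, chr3:90695722-90695971, minus strand: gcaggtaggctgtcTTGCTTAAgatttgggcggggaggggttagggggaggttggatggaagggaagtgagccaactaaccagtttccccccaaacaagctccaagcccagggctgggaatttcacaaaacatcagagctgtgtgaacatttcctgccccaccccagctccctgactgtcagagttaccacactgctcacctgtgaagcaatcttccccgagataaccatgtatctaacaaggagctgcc
In Il6 the AP-1 match begins 249 bases before the start, the cAMP-response core 136, the C/EBP match 128 and the NF-kappa-B match 44. Fos holds an NF-kappa-B match 214 and a core match 66 bases before its start, and S100a9 1 C/EBP match at 236, while S100a8 holds none of the 4 in this window. Of 32851 promoters of this length, 6.75% hold the AP-1 letters, 9.56% the C/EBP letters, 7.25% the NF-kappa-B consensus and 6.47% the core. A match is a run of letters and was not tested for binding.

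Immediate-early genes lay mostly above zero in both backgrounds. They encode transcription factors and feedback regulators that are switched on within minutes of a stimulus. Of 20 measured, 19 were above zero in the average effect, 14 in trauma against control and 19 in ligature plus trauma against ligature. The medians were 0.49, 0.39 and 0.58, against 0.002, 0.01 and -0.01 over all genes tested. Neither edgeR nor DESeq2 called any. An unadjusted p under 0.05 was reached by 8 of the 20, all higher, where 1.95% of all genes lay higher at that p. With the length trend as covariate 9 had such a p, and 3 did without ligature 2 as well. In trauma against control 5 were higher and 1 lower at that p, and with the ligature 5 were higher. An unadjusted interaction p under 0.05 was found for 4 of the 20, where 4.93% of all genes had one. The average median stayed between 0.35 and 0.63 under all 27 settings, and the median with the ligature between 0.35 and 0.71 under 26. That in trauma against control was 0.22 without trauma 2, where 12 members were above zero, and 11 were without trauma 4.

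Fos, a subunit of AP-1, was at 54.1, 52.4, 67.7 and 55.3 CPM in control, 35.1, 145, 78.3 and 138 in trauma, 115, 77.6, 82.3 and 137 in ligature and 158, 296, 111 and 223 in ligature plus trauma. Trauma 1 lay below every control library and the other 3 trauma libraries above; with the ligature, ligature plus trauma 1, 2 and 4 lay above the ligature range. The average was 0.86 (SE 0.26, edgeR unadjusted p 0.004, adjusted p 0.831), 0.79 without and 0.93 with the ligature, with an interaction p of 0.789. Junb, another AP-1 subunit, was at 0.81 (SE 0.26), 1.08 without and 0.54 with the ligature. Ier3, a stress-induced survival regulator, was at 0.92 (SE 0.28), 1.17 without and 0.67 with the ligature. Zfp36 encodes tristetraprolin, which destabilises cytokine transcripts, and was at 0.67 (SE 0.23), 0.89 without and 0.44 with the ligature.

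The canonical YAP and stretch-response genes had no common direction. Of 20 measured, 6 were above zero on average (median -0.15), 6 without the ligature (-0.23) and 12 with it (0.02). Ccn1 and Ccn2, matricellular targets of YAP, had average values of 0.34 (95% interval -0.12 to 0.80) and -0.13 (-0.77 to 0.51). Gadd45b, a stress-induced growth arrest gene, was higher by 0.62 (SE 0.21), equally in both backgrounds (0.62 and 0.62). Ajuba, a LIM protein that restrains the Hippo kinases, was at -0.69 (SE 0.31). With the length trend as covariate 13 of the 20 were above zero on average and the median was 0.04.

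Mature neutrophil genes lay above zero with trauma, with larger values without the ligature than with it. Of 17 measured, 15 were above zero in both backgrounds, and edgeR called none. In the average effect 11 had an unadjusted p under 0.05, all higher, where 1.95% of all genes lay higher at that p. DESeq2 called 1, S100a9, at an adjusted p of 0.0249. The median was 0.98, made of 1.61 without and 0.35 with the ligature, and 4 of the 17 had an unadjusted interaction p under 0.05, where 4.93% of all genes did. S100a8, a calprotectin subunit that fills the neutrophil cytosol, was at 81.8, 343, 89.5 and 153 CPM in control, 276, 2557, 1878 and 1177 in trauma, 444, 709.9, 388 and 217 in ligature and 297, 1841, 1808 and 470.4 in ligature plus trauma. Trauma 2, 3 and 4 stood above all control libraries, trauma 1 within them; ligature plus trauma 2 and 3 stood above all ligature libraries, 1 and 4 within them.

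The average for S100a8 was 2.23 (SE 0.55, edgeR unadjusted p 0.000821, adjusted p 0.831), 3.14 without and 1.33 with the ligature. Its partner S100a9 was at 1.98 (SE 0.50), 2.89 without and 1.06 with the ligature, with an unadjusted interaction p of 0.0457. Clec4d and Clec4e, C-type lectin receptors of myeloid cells, were at 1.40 (SE 0.44) and 1.13 (SE 0.36). The value with the ligature rests on replicates 2 and 3, which together with ligature 2 are the 3 libraries shifted to short transcripts. Without these 3 the list's median with the ligature was -0.30, and 3 of the 17 genes were above zero there. The trauma against control median lay between 1.21 and 2.01 under all 26 settings. With the length trend as covariate 7 of the 17 had an unadjusted p under 0.05 in the average effect. Without ligature 2 as well, 0 of the 17 had one, though all 17 lay above zero on average. S100a8 was then at 1.28 and S100a9 at 1.11.

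Of the inflammatory cytokines and chemokines, all 21 were above zero on average and in trauma against control, and 13 with the ligature. The medians were 0.97, 1.97 and 0.29. In the average effect 8 had an unadjusted p under 0.05, all higher, where 1.95% of all genes lay higher at that p. With the length trend as covariate 5 had such a p, and 2 did without ligature 2 as well. Il1b, the inflammasome cytokine, was at 78.1, 117, 28.5 and 49.3 CPM in control, 217, 357, 128 and 476 in trauma, 319, 409, 467 and 577 in ligature and 307, 1359, 1008 and 364 in ligature plus trauma. Trauma lay wholly above control, and ligature plus trauma 2 and 3 stood above all ligature libraries. Its average was 1.44 (SE 0.40, edgeR unadjusted p 0.00219), 2.11 without and 0.78 with the ligature. The macrophage chemokines Ccl4 and Ccl3 were at 1.59 (SE 0.46) and 1.55 (SE 0.46), and the neutrophil chemokine Cxcl2 at 1.34 (SE 0.42). Ptgs2, which makes the prostaglandins of loaded ligament, was at 1.39 (SE 0.41), 2.08 without and 0.69 with the ligature. Of 14 measured genes of prostaglandin synthesis and receptors, however, 8 were above zero on average, with a median of 0.03. Without the 3 short-shifted libraries the median of the cytokine list with the ligature was -0.27. The average median of the cytokine list lay between 0.62 and 1.19 under all 27 settings.

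Saa3, the local serum amyloid A, was the only gene edgeR called in either single contrast (1 gene of trauma against control, 0.00477%, and 0 of ligature plus trauma against ligature, 0%). It was at 0.979, 0.368, 0.399 and 0.323 CPM in control, 24.1, 139.9, 65.3 and 64.6 in trauma, 5624, 15000, 3749 and 5665 in ligature and 4335, 10350, 20660 and 1942 in ligature plus trauma. Saa3 rose in trauma by 7.14 on the log2 scale (SE 0.86, edgeR adjusted p 0.00684), and was at 0.31 with the ligature (SE 0.65), where the groups overlapped. Averaged over both contrasts of the 4-group fit it was called as the only gene (3.73, edgeR adjusted p 0.0434), whereas in the additive fit it was not (3.62, SE 1.38, adjusted p 0.831). Lcn2, which withholds iron from bacteria, was at 2.93 without and 0.14 with the ligature, and the acute-phase gene Orm1 at 3.83 without and 0.72 with the ligature. Of 14 acute-phase genes measured, 10 were above zero on average, with a median of 0.91 made of 1.29 and 0.18. The median with the ligature was below zero under 6 of 26 settings. It was -0.43 without ligature plus trauma 3 and -0.66 without the 3 short-shifted libraries, and in each case 2 of the 14 were above zero there.

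**Figure D3:**
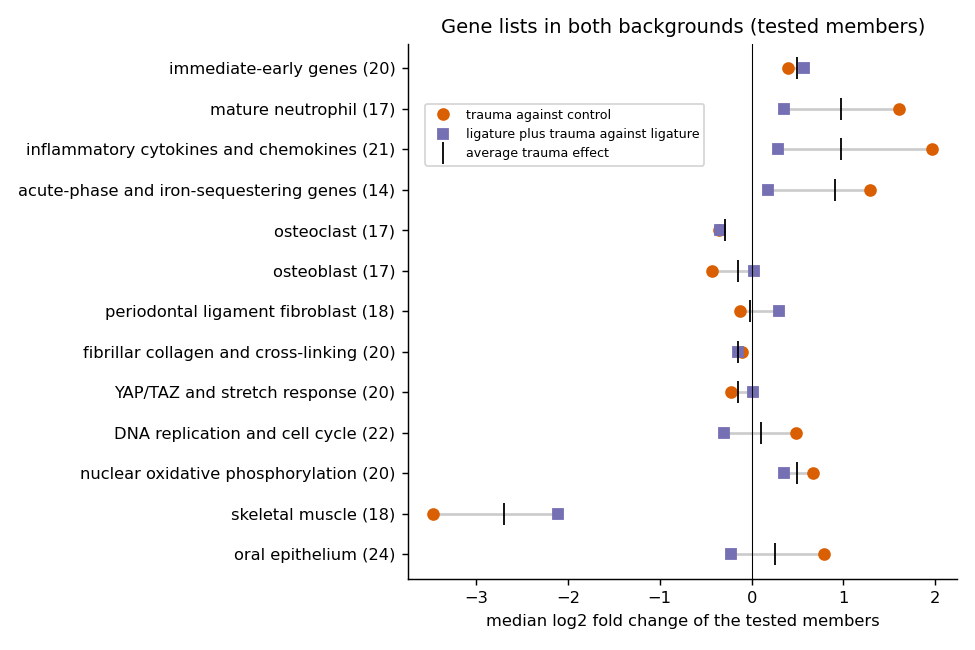
Median log2 fold change of the tested members of 13 gene lists (number in brackets), with circles for trauma against control, squares for ligature plus trauma against ligature and a bar for the average effect. Immediate-early, osteoclast and oxidative phosphorylation medians lie on 1 side of zero in both backgrounds, neutrophil and cytokine medians shrink with the ligature, and the cell cycle medians lie on opposite sides at 0.49 and -0.31.

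Osteoclast genes lay slightly below zero in both backgrounds. Of 17 measured, 15 were below zero on average, 15 in trauma against control and 16 with the ligature. The medians were -0.29, -0.36 and -0.35. Neither edgeR nor DESeq2 called any, and 2 had an unadjusted p under 0.05, both lower, where 2.67% of all genes did. Itgb3, the integrin chain of the osteoclast sealing zone, was at 48.8, 53.4, 29.6 and 41 CPM in control, 20.7, 32.1, 21.4 and 28.8 in trauma, 378, 68.5, 153 and 197 in ligature and 129.7, 66.9, 93.8 and 235 in ligature plus trauma. Trauma overlapped control and ligature 2 lay below most overloaded libraries. Its average was -0.67 (SE 0.30, edgeR unadjusted p 0.0369), -0.75 without and -0.60 with the ligature. Tm4sf19, a tetraspan membrane protein of multinucleated osteoclasts, was at -1.01 (SE 0.41), Nfatc1, the master transcription factor of the lineage, at -0.51 (SE 0.27), and the chloride transporter Clcn7 at -0.45 (SE 0.24). With the length trend as covariate Tm4sf19 was at -0.42, Itgb3 at -0.24, Clcn7 at -0.05 and Nfatc1 at -0.03, and no gene of the list had an unadjusted p under 0.05.

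The resorbing enzymes themselves had no clear direction. Acp5 (tartrate-resistant acid phosphatase) was at -0.03 with a 95% interval of -0.66 to 0.60, and Ctsk (cathepsin K) at -0.21 (-0.77 to 0.34). Both intervals hold zero and also the list's average median of -0.29. The average median of the list lay between -0.46 and -0.12 under all 27 settings, nearest to zero with the length trend as covariate.

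The ligand that drives these cells, Tnfsf11, was at 2.56, 19, 17.1 and 37.5 CPM in control, 5.48, 87.9, 17.3 and 117 in trauma, 97.8, 81.3, 93.5 and 65.6 in ligature and 87.8, 88.4, 103 and 82.7 in ligature plus trauma. The groups overlapped in both backgrounds, with trauma 2 and 4 above every control library. Its average was 0.84 (95% interval -0.31 to 1.98), 1.58 without and 0.10 with the ligature. Without trauma 4 the average was 0.50. The decoy receptor Tnfrsf11b was at 0.41 (-0.15 to 0.98), 0.45 without and 0.37 with the ligature, and at 0.21 on average without ligature plus trauma 4. Mmp13, the collagenase of bone and ligament, was at -0.41 (-1.19 to 0.37).

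Bone-forming genes had no common direction. Of 17 osteoblast genes measured, 6 were above zero on average and the median was -0.14. Bglap, osteocalcin, was at 1161, 1751, 2928 and 3049 CPM in control, 3232, 2141, 1716 and 1795 in trauma, 246, 431, 228 and 547 in ligature and 812, 1115, 1348 and 686 in ligature plus trauma. Trauma and control overlapped, with trauma 1 above every control library and control 1 below every trauma library, whereas all 4 ligature plus trauma libraries lay above all 4 ligature libraries. Its log2 fold change was -0.00 without and 1.45 with the ligature, with an unadjusted interaction p of 0.0119 (adjusted p 0.969 by edgeR). Its near-identical neighbour Bglap2, with which reads can be shared, was at 0.06 without and 1.31 with the ligature. Both are short, with longest transcripts of 440 and 471 bases against a median of 2800 over the genes tested. The average of Bglap2 was 0.685, and 0.21 without ligature 2 with the length trend as covariate. That of Bglap lay between 0.313 and 0.858 under all 27 settings. Sost, the osteocyte inhibitor of Wnt signalling, was at 0.37 (-1.10 to 1.85) and Postn at 0.19 (-0.49 to 0.86). Of the 18 ligament fibroblast genes, 6 were above zero without the ligature (median -0.12) and 15 with it (0.30). Their average median was -0.01, with 8 above zero, and had the other sign under 14 of 27 settings.

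**Figure D4:**
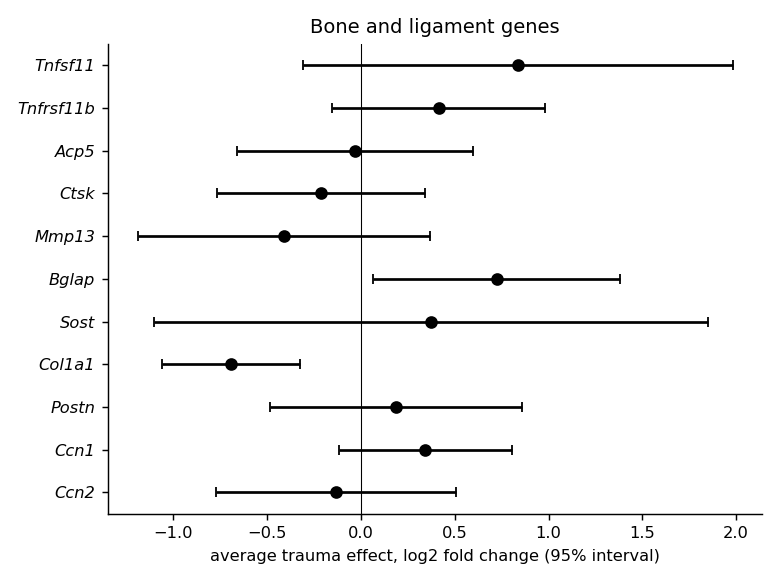
Average trauma effect of 11 bone and ligament genes as log2 fold change (x axis, points) with 95% intervals (bars) from the additive edgeR fit on 16 libraries. Only the intervals of Bglap, above zero, and Col1a1, below zero, do not reach zero, and neither passed after adjustment.

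Cell cycle genes lay on opposite sides of zero in the 2 backgrounds. Of 22 measured, 20 were above zero in trauma against control (median 0.49) and 1 with the ligature (median -0.31), and 8 had an unadjusted interaction p under 0.05, where 4.93% of all genes did. Mcm5, a subunit of the replicative helicase, was at 5.73, 6.97, 4.29 and 3.06 CPM in control, 13.9, 13.8, 15 and 8.5 in trauma, 26, 20.7, 29.5 and 19.1 in ligature and 16.1, 11, 16.1 and 18.4 in ligature plus trauma. Trauma lay wholly above control and ligature plus trauma wholly below ligature. The fold changes were 1.35 without and -0.63 with the ligature (unadjusted interaction p 0.000106, edgeR adjusted p 0.554). Mcm2, from the same helicase, was at 1.06 without and -0.22 with the ligature, and Tk1, a thymidine kinase of S phase, at 1.51 without and -0.22 with the ligature. Pcna, the sliding clamp, was at 0.71 without and 0.02 with the ligature. Both list medians kept their sign under all 26 settings.

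Nuclear genes of oxidative phosphorylation lay above zero without exception when all 16 libraries were used. All 20 measured were positive in both backgrounds, with medians of 0.50 on average, 0.67 without and 0.35 with the ligature. In ligature plus trauma against ligature, 9 of the 20 were above zero on leaving out ligature plus trauma 3. There were 17 on leaving out ligature 3 and 19 on leaving out ligature 4. The longest transcript was below the median of 2800 bases in 18 of the 20, with a median of 783. Ndufa4, a cytochrome oxidase subunit of 1232 bases, was at 0.78 (SE 0.35), and Sdhc, a subunit of succinate dehydrogenase, at 0.47 (SE 0.16). With each library's length trend as covariate the average median was -0.005, and without ligature 2 as well it was -0.16.

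This length trend ran through the whole comparison. Across genes the average log2 fold change had a rank correlation of -0.379 with transcript length, -0.367 in trauma against control and -0.205 with the ligature. The 19 higher genes of the same-direction set had a median longest transcript of 2370 bases and the 15 lower ones of 4290. In the 444 genes found without ligature 2 the medians were 1180 for 242 higher and 4900 for 202 lower genes. Once the length trend entered that fit, 95 same-direction genes (45 higher, 50 lower) and 15 opposite ones were found. The medians of the higher and lower genes were 2790 and 2480 bases, and 26 of the 95 were among the 444. The trend was computed from the same counts, so a fit with it removes the length difference by construction. It also lay mostly lower in trauma than in control libraries. In all fits with this covariate, the trend and an effect of trauma cannot be fully told apart.

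**Figure D5:**
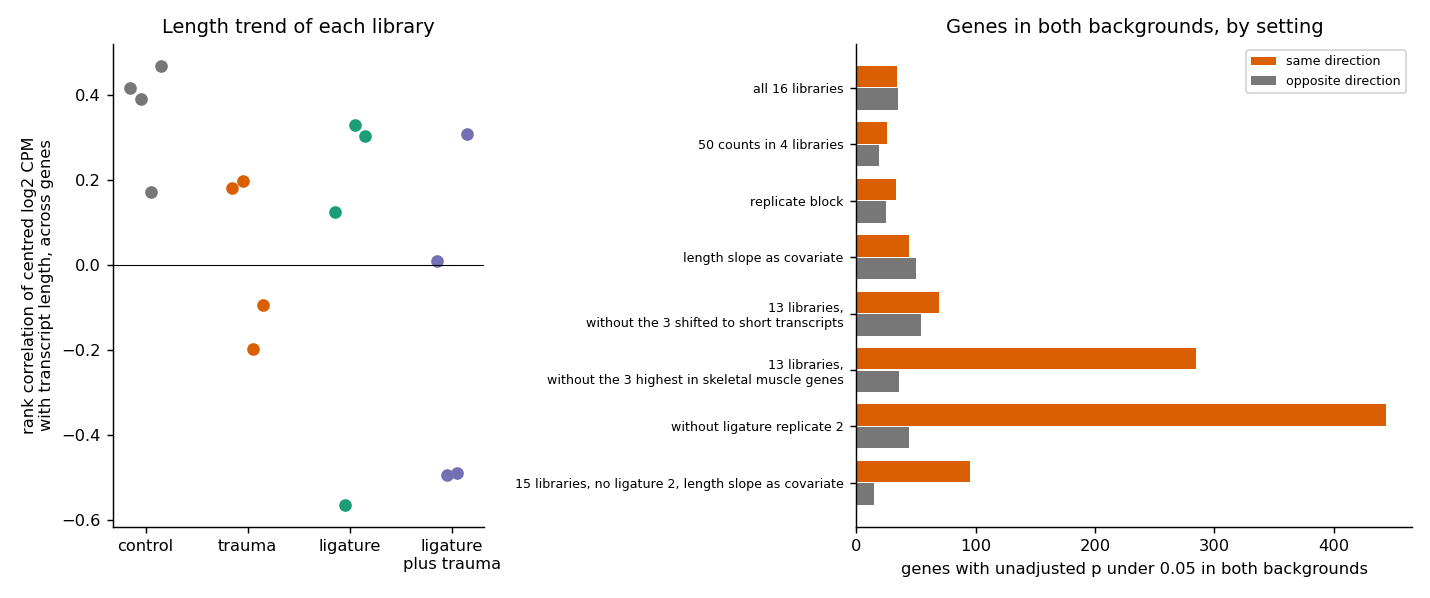
Left, rank correlation across genes between centred log2 CPM and transcript length, 1 point for each library by group. Right, genes with an unadjusted p under 0.05 in both backgrounds in the same (orange) and opposite (grey) direction under 8 settings; the counts are 34 and 35 with all 16 libraries, 444 and 44 without ligature 2, and 95 and 15 when the length trend is added.

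Skeletal muscle genes lay lower with trauma in both backgrounds, and this rested on few libraries. Of 18 measured, 17 were below zero in both, and the medians were -2.70, -3.47 and -2.11. In the average effect 11 had an unadjusted p under 0.05, all lower, where 2.67% of all genes lay lower at that p. Acta1, skeletal alpha-actin, was at 5.18, 0.667, 22.5 and 0.674 CPM in control, 0.309, 0.335, 1.78 and 1.02 in trauma, 30, 180.2, 62.8 and 2.53 in ligature and 17.3, 35.5, 3.35 and 6.69 in ligature plus trauma. Ligature 2 and 3 were the highest, control 3 stood apart from its group, and every trauma library was low. The average for Acta1 was -2.59 (SE 0.84), that for the creatine kinase Ckm -3.59 (SE 1.18) and that for troponin Tnnt3 -3.12 (SE 1.11). Tcap, titin-cap, was at 0 in all 4 trauma libraries. Without control 3, ligature 2 and ligature 3, the 3 libraries highest in these genes, the average median was 0.35 and that with the ligature 3.38. That of trauma against control was -0.99 there, against -3.47 with all libraries, and stayed below zero under all 26 settings.

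A last gene named by its small p, Lipf (gastric lipase), shows how 1 library can carry such a value. It was at 927, 10.2, 0 and 0 CPM in control and at 0, 0.176, 0 and 0 in trauma, at 0.315, 0.683, 0 and 0 in ligature and at 0 in every ligature plus trauma library. Its level lay almost wholly in control 1, and no fold change is given.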

How the data were processed

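RNA sequencing of periodontal ligament gave 16 libraries, 4 in each of 4 groups, from poly(A) RNA per the labels' protocols. The authors deposited raw counts, whole numbers of reads, for 55359 genes. Build GRCm39 and the tools HISAT2 2.2.1, StringTie 2.1.7, Trimmomatic 0.39, FastQC 0.11.9 and DESeq2 1.32.0 are listed, with no roles, in the submitters' processing notes. Which tool counted reads, with which annotation and strand setting, is not given in the sources used here, so overlapping and antisense genes cannot be told apart. Transcript lengths came from GENCODE M21 (GRCm38) by gene identifier, for 99.66% of the tested genes.

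Counts were filtered with edgeR's filterByExpr by group (minimum count 10), scaled by TMM and tested with edgeR 4.0.16 (R 4.3.3) by quasi-likelihood, with ligature and trauma as additive terms and 13 residual degrees of freedom. The 2 single contrasts and the interaction came from a fit with a mean for each group. Calls needed a Benjamini-Hochberg adjusted p under 0.05 over all 20953 genes. Log2 fold changes are given with standard errors (SE), and 95% intervals where stated. The scripts were tested on simulated data. Replicate numbers were checked for pairing and did not pair the libraries: over 24 same-numbered pairs the median correlation of deviations was 0.0529, and 11 exceeded 0.1.

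Named genes were up to 12 called genes in each direction of mean log2 CPM of at least 1 with 1 sign in both backgrounds, filled to 6 by lowest p where none was called, up to 4 members of lowest p of each list, a panel, and 6 genes of lowest larger p, of which those with counts near 0 are given only as a number. The members and lists were chosen with earlier results of these data known. Alternatives were DESeq2 1.42.0, its size factors, limma-voom (limma 3.58.1), other count filters, a replicate block, subsets of libraries, the length trend as covariate and leaving out each library. A fit without ligature 2 with the length trend was added after seeing the data.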

Additional observations from a re-analysis of the deposited data

Results flagged for a closer look

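A single library stood apart from the other 3 of its group, by Dixon's criterion, in 10 of 128 groups of 4 values tested; chance flags about 1 in 20. Values are log2(CPM + 0.5). Retnlg was at 6.3 in ligature 2 against 4.95 to 5.16 in the other ligature libraries. S100a9 was at 7.95 in trauma 1 against 10.5 to 11. Lipf was at -0.566 in trauma 2, where the others had no count. Saa3 was at 0.564 in control 1 against -0.281 to -0.154. Il6 was at 8.47 in ligature plus trauma 2 against 6.85 to 6.91. Sost was at -0.604 in ligature plus trauma 3 against 0.953 to 1.18. Mmp13 was low in control 1 (9.59 against 11.7 to 11.9) and in ligature 2 (12 against 13.9 to 14.1).

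The mean centred level of a marker list also singled out libraries. Oral epithelial genes were at -0.544 in ligature plus trauma 1 against -2.15 to -1.88 in the rest of that group. Erythroid genes were at 1.24 in trauma 1 against -0.568 to -0.36. The causes were not tested.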

How the results depend on the processing

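The average effect had 0 genes called under 26 of 28 alternatives. DESeq2 called 17, 12 higher and 5 lower, and 54 for the interaction, and the mean of the 2 contrasts in the 4-group fit called 1. The interaction called 2 without the 3 libraries shifted to short transcripts, 1 with the length trend as covariate and 0 to 2 on leaving out 1 library. Genes with an unadjusted p under 0.05 numbered 2184 with no count filter, 3733 with limma-voom, 2461 without the 3 short-shifted libraries, 3973 without the 3 libraries highest in muscle genes, 610 without ligature in the model and 745 to 4171 on leaving out 1 library, highest without ligature 2 and 1794 without ligature plus trauma 4. The same-direction count was 70 and the opposite count 67 with no count filter; 236 were in the same direction with limma-voom, 69 against 54 without the short-shifted libraries, 285 without the muscle-high ones, and 95 against 15 without ligature 2 with the length trend. Requiring 50 counts in 4 libraries gave 19 opposite genes. On leaving out 1 library the same-direction count ran from 27 to 444 (74 without ligature plus trauma 4, 56 without ligature plus trauma 1) and the opposite count from 31 to 59. With the replicate block 0 genes were called, 1168 had an unadjusted p under 0.05, and 33 lay in the same and 25 in the opposite direction; 5 of 16 libraries correlated best with their own number.

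Of 75 genes named, 65 kept their sign throughout. With limma-voom Acp5 was at 0.0627, Asb5 at 0.017, Ccn2 at 0.0293, Ckm at 0.477, Sost at -0.186 and Tnnt3 at 0.221. Without the short-shifted libraries Acp5 was at 0.0474, and without the muscle-high ones at 0.113, with Tnnt3 at 0.264. Without ligature 2 and with the length trend Ccn2 was at 0.113 and Ndufa4 at -0.0932. Without ligature in the model Mcm5 was at -0.0319. On leaving out 1 library A2m ran from -1.67 to 0.355, Acp5 ran from -0.273 to 0.0758, Asb5 ran from -0.366 to 0.0829, Ccn2 ran from -0.287 to 0.176, Dnajb2 ran from -0.1 to 0.0505 and Sost ran from -0.0964 to 0.602. The cause of these shifts was not tested. Of 29 list medians, 16 kept their sign.

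Depth leaves no firm size to the fold changes of genes with 0 counts in every library of a group, 9 of the 34 same-direction genes; its part in the other intervals was not tested.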

Other observations

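Several lists not described above lay on opposite sides of zero in the 2 backgrounds, and none of their members was called by edgeR or DESeq2 in the average effect. Mast cell genes had 1 of 12 members above zero in trauma against control (median -1.72) and 10 of 12 in ligature plus trauma against ligature (0.51). Genes of marrow granulocyte precursors, the immature stages before the mature neutrophil, had 2 of 13 above zero without the ligature and 11 of 13 with it. Schwann cell and nerve genes had 4 of 16 and 13 of 16 above zero, with medians of -0.20 and 0.52. Wnt targets and regulators had 2 of 19 and 14 of 19, at -0.27 and 0.26.

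Lists in the other order were hypoxia and glycolysis genes, with 17 of 21 above zero without the ligature (median 0.31) and 4 of 21 with it (-0.30), and sterol synthesis genes, with 11 of 17 (0.44) and 2 of 17 (-0.37). Interferon-stimulated genes lay mostly above zero in both, 15 of 18 (median 0.55) and 13 of 18 (0.11). In the average effect 1 of them had an unadjusted p under 0.05, where 4.62% of all genes did. Unadjusted interaction p-values under 0.05 were found for 3 mast cell, 3 granulocyte precursor, 5 Schwann cell, 2 Wnt, 3 hypoxia and 3 sterol genes, where 4.93% of all genes tested had one. These lists were picked out after their values were seen.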
